A study of Drosophila melanogaster with 9 samples.

Results

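The larval serum protein genes of Drosophila melanogaster and 3 further genes of the late larval fat body were followed across 9 fat body RNA libraries. The set holds Lsp1alpha, Lsp1beta, Lsp1gamma, Lsp2, Fbp1, Fbp2 and Obp99b, chosen by name and found by matching gene identifiers to FlyBase symbols in the BDGP6 annotation. All 7 were present among the 10242 genes measured. Of the 3 genes beside the serum proteins, only Fbp1 is known as a receptor, so the set is treated here as storage proteins, their receptor and a pair of other abundant fat body products.

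The fat body is the insect counterpart of liver and adipose tissue. During the last larval instar it secretes larval serum proteins, hexamerins related to arthropod hemocyanins, into the hemolymph. Near pupariation, under the steroid hormone ecdysone, synthesis stops, the receptor encoded by Fbp1 appears, and the stored proteins are taken back into fat body granules as an amino acid reserve for building the adult.

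Stranded poly(A) RNA was sequenced from 3 libraries of white prepupae titled LacZ, 3 of white prepupae titled mitf and 3 of larvae of instar 3 titled e3IL and LacZ. Each library held the fat bodies of 5 animals, and animals were kept at 21 °C for 21 h as eggs and then at 25 °C. All carried 1 copy of Lsp2-GAL4, a driver built from regulatory sequence of Lsp2, which is itself among the genes described. The larvae carried 1 copy of UAS-LacZ, a control transgene, and the genotype label gives 1 copy of UAS-Mitf to all 6 prepupa samples. Mitf encodes the fly transcription factor of the MiT/TFE family, which acts on lysosome and autophagy genes, and the study compared its overexpression in prepupae and the stages without it. Nothing in the labels ties the replicates of a group to separate crosses, so p-values measure only the spread between these libraries, which may be technical.

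The titles of the prepupa groups conflict with the column names inside the deposited tables and with the Mitf level. Mitf had 35204, 68535 and 45647 normalised read counts in the libraries titled LacZ, against 347, 370 and 407 in those titled mitf and 378, 385 and 411 in larvae. It was thus high in all 3 libraries titled LacZ and at the larval level in those titled mitf. Groups keep the names of their titles, and every direction between the prepupa groups is stated by those titles. Read by the Mitf level, prepupae titled LacZ are the group with high Mitf. Summed normalised counts ran from 17195757 to 18187221 in prepupae titled LacZ, from 23607147 to 24354238 in those titled mitf and from 22604438 to 27178650 in larvae. Without the 7 genes the sums were 16047145 to 16709793 in prepupae titled LacZ, 13263428 to 13923841 in those titled mitf and 15070510 to 15941338 in larvae.

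The tissue label was checked against markers of other tissues. The 11 fat body markers outside the set together took 0.476% to 0.889% of the counts in prepupae titled LacZ, 1.74% to 1.92% in those titled mitf and 5.91% to 7.01% in larvae. None of the 11 was at 0 in any group, and prepupae titled LacZ had 4 higher and 6 lower by call than those titled mitf. Relative to larvae, prepupae titled LacZ had 3 of the 11 higher and 8 lower, and those titled mitf 3 higher and 7 lower. Of other tissues, 11 of 12 Malpighian tubule markers took 0.261% to 0.264% in prepupae titled LacZ, against 0.0145% to 0.0157% in those titled mitf and 0.0164% to 0.0243% in larvae. Gut markers, 9 of 12 measured, took 0.0321% to 0.0483%, against 0.000294% to 0.000341% and 0.00154% to 0.00205% in the same order of groups. Epidermis and disc markers, 9 of 10 measured, took 0.0640% to 0.0703%, against 0.00324% to 0.00353% and 0.00382% to 0.00729%. In prepupae titled LacZ, deltaTry alone makes up most of the gut sum and ap alone most of the epidermis and disc sum. Their log2 differences from prepupae titled mitf were 12.72 and 3.88, so these sums do not show a rise shared by the markers. The 10 muscle markers took 0.0347% to 0.0408%, against 0.00362% to 0.00458% and 0.0117% to 0.0144%. The sums hide members that went the other way: of the muscle markers, prepupae titled LacZ had 2 higher and 6 lower than larvae, and sls, one of the 2, averaged 5455, 424 and 96 normalised counts in prepupae titled LacZ, prepupae titled mitf and larvae. By call, prepupae titled LacZ had 8 higher and 0 lower tubule markers, 5 and 1 gut markers, 3 and 0 epidermis and disc markers and 5 and 0 muscle markers relative to prepupae titled mitf. Relative to larvae they had 5 higher and 1 lower tubule markers, 5 and 2 gut markers, and 3 and 3 epidermis and disc markers. Marker counts by call, here and for hemocytes and neurons below, need the rate over all genes beside them. Between the prepupa groups 41.1% of genes tested passed as higher in those titled LacZ and 31.6% as lower. Against larvae the rates were 46.3% and 32.2% for prepupae titled LacZ, and 34.8% and 31.7% for those titled mitf. A count near its rate does not set a tissue apart from other genes.

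Hemocyte markers, 8 of 10 measured, took 0.0555% to 0.104% in prepupae titled LacZ, 0.0446% to 0.0514% in those titled mitf and 0.470% to 0.925% in larvae. Col4a1, a collagen gene, makes up most of that sum at 13118, 7789 and 165129 normalised counts in those groups, and relative to larvae prepupae titled LacZ had 5 of the 8 higher and 2 lower, and prepupae titled mitf 3 higher and 2 lower. Between the prepupa groups, those titled LacZ had 1 higher and 2 lower. The 6 neuron markers took 0.0123% to 0.0183% in prepupae titled LacZ, 0.0796% to 0.0867% in those titled mitf and 0.00948% to 0.0125% in larvae. Syt1 alone makes up most of that sum, at 2652, 20035 and 2749 normalised counts, while prepupae titled LacZ had 4 of the 6 higher than those titled mitf and 1, Syt1, lower. Relative to larvae, prepupae titled LacZ had 5 of the 6 higher and 0 lower, and those titled mitf 2 higher and 0 lower. Each group had markers at 0 in all its libraries. In prepupae titled LacZ this was Jon99Cii of gut. In prepupae titled mitf these were Act88F of muscle, betaTry, deltaTry and Amy-p of gut, CapaR of tubule and Lcp2 of epidermis. In larvae they were Act88F of muscle, alphaTry of gut, and Cpr49Ae, vg and Dll of epidermis and discs. None of the 10 salivary gland markers is among the genes measured here. These marker levels move with the groups, and their part in the results was not tested. In whole fat body, fewer cells making a transcript and less transcript per cell cannot be told apart.

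Lsp1alpha lies on the X chromosome and the other 6 genes on autosomal arms 2L, 3L and 3R. In BDGP6, Lsp1alpha (FBgn0002562) lies at X:12490291-12492982 on the plus strand, Lsp1beta (FBgn0002563) at 2L:898500-901316 plus and Lsp1gamma (FBgn0002564) at 3L:66430-68995 plus. Lsp2 (FBgn0002565) lies at 3L:12129393-12131869 plus, Fbp1 (FBgn0000639) at 3L:14094589-14098053 minus, Fbp2 (FBgn0000640) at 2L:9426784-9427917 plus and Obp99b (FBgn0039685) at 3R:29716254-29716896 minus. All are protein-coding, and the longest transcript of each has at most 2 exons, a structure found in 29.8% of the 10189 genes with an annotation. The predicted proteins run from 149 residues for Obp99b to 1029 for Fbp1, with 816, 789 and 772 residues for Lsp1alpha, Lsp1beta and Lsp1gamma and 701 for Lsp2. The 3 Lsp1 genes are similar in sequence, so that any reads shared between them would be divided by estimation. Their separate values are then less certain than their sum, and the number of shared reads was not measured. An antisense noncoding gene covers 2096 bases of Lsp2 and has no value in these data, and the use of strand in the counting is not given in the sources used here. A neighbouring gene, CG42847, shares 48 bases with Fbp2 on the same strand and never exceeded 2045 normalised counts.

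**Figure D1:**
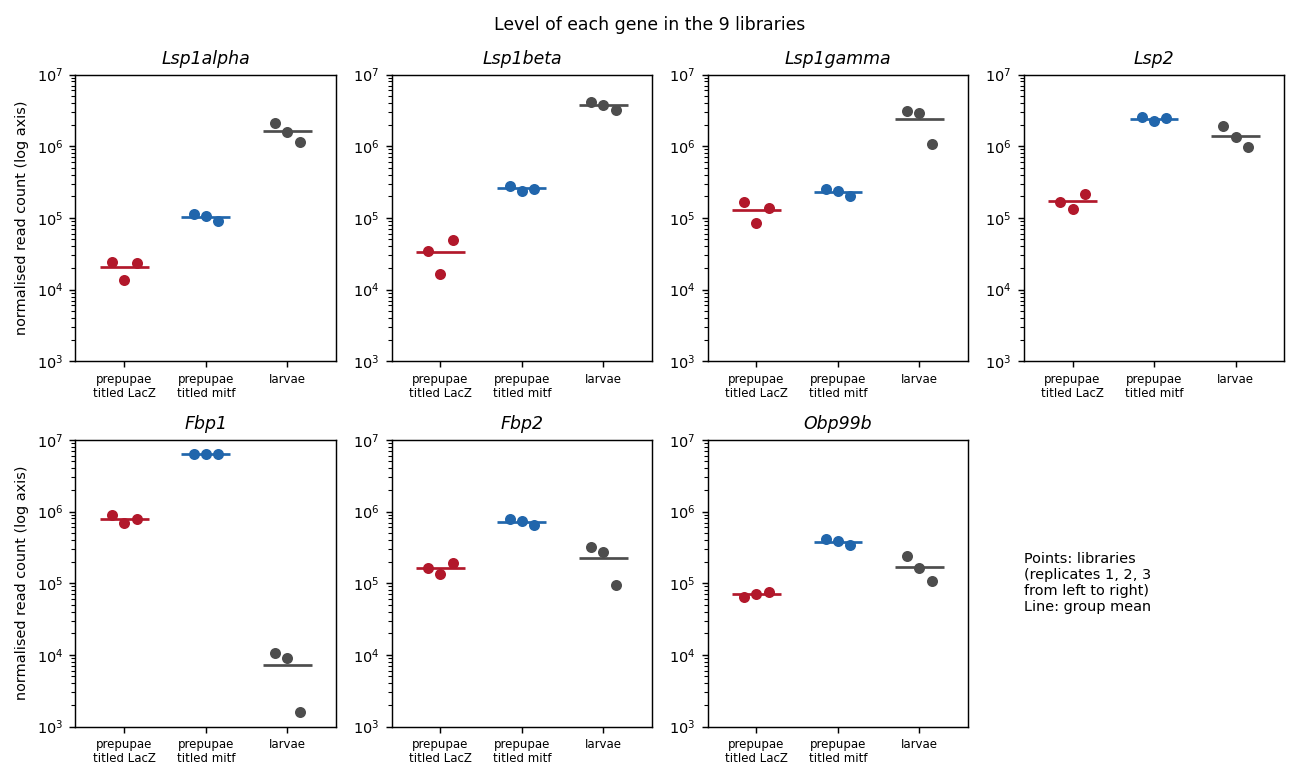
Normalised read counts of the 7 genes on log axes in prepupae titled LacZ, prepupae titled mitf and larvae, with 1 point for each of 3 libraries and a line at the group mean. The 3 Lsp1 genes are highest in larvae, Lsp2, Fbp1, Fbp2 and Obp99b are highest in prepupae titled mitf, and Fbp1 in larvae lies between 1597 and 10608.

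Lsp1alpha, Lsp1beta and Lsp1gamma encode the subunits of the LSP1 hexamer. Their transcripts were far lower in both prepupa groups than in larvae. Lsp1alpha had 23952, 13770 and 23772 normalised counts in prepupae titled LacZ, 111530, 106018 and 89229 in those titled mitf, and 2107957, 1600693 and 1161914 in larvae. The 3 groups did not overlap, with larvae highest and prepupae titled LacZ lowest. The level fell by 6.31 ± 0.29 (log2, SE) in prepupae titled LacZ relative to larvae (limma, adjusted p = 2.55e-08) and by 3.95 ± 0.29 in prepupae titled mitf (limma, adjusted p = 1.19e-06). Between the prepupa groups it was lower in those titled LacZ, with a log2 difference of -2.36 ± 0.29 (limma, adjusted p = 4.6e-05).

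Lsp1beta had 34335, 16650 and 48444 normalised counts in prepupae titled LacZ, 280545, 240526 and 253856 in those titled mitf, and 4101874, 3816897 and 3247336 in larvae. The groups again lay apart, in the same order as for Lsp1alpha. The log2 difference was -6.94 ± 0.37 for prepupae titled LacZ against larvae (limma, adjusted p = 7.11e-08). It was -3.85 ± 0.37 for prepupae titled mitf against larvae (limma, adjusted p = 8.05e-06) and -3.09 ± 0.37 for titled LacZ against titled mitf (limma, adjusted p = 3.56e-05).

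Lsp1gamma had 166660, 84717 and 139234 normalised counts in prepupae titled LacZ, 249438, 235274 and 202211 in those titled mitf, and 3125743, 2934351 and 1090495 in larvae. Larval replicate 3 was far below the other larvae but still above every prepupa library. The level fell by 4.10 ± 0.44 on the log2 scale in prepupae titled LacZ relative to larvae (limma, adjusted p = 1.3e-05) and by 3.24 ± 0.44 in those titled mitf (limma, adjusted p = 0.000102). Every library titled LacZ lay below every library titled mitf, yet the log2 difference of -0.86 ± 0.44, with a 95% interval from -1.86 to 0.13, did not pass the test (limma, adjusted p = 0.104). It passed without larval replicate 3, at an unchanged difference of -0.86, since that library enters this comparison only through the shared spread (limma, adjusted p = 0.0237).

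Lsp2 encodes the second storage hexamerin, and its pattern differed from that of the Lsp1 genes: it was highest in prepupae titled mitf. It had 168539, 132146 and 214161 normalised counts in prepupae titled LacZ, 2568149, 2228410 and 2461725 in those titled mitf, and 1899455, 1334194 and 960083 in larvae. No library of 1 group lay within another. Prepupae titled LacZ were lower than those titled mitf by a log2 difference of -3.84 ± 0.38 (limma, adjusted p = 8.57e-06) and lower than larvae by one of -2.998 ± 0.38 (limma, adjusted p = 4.54e-05). Prepupae titled mitf against larvae gave 0.84 ± 0.38, with a 95% interval from -0.01 to 1.70, which did not pass the test (limma, adjusted p = 0.076). That difference passed at 0.90 with equal library totals (limma, adjusted p = 0.0402) and at 1.09 without larval replicate 1 (limma, adjusted p = 0.0316).

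Fbp1 encodes the receptor for the uptake of larval serum proteins and is itself a member of the hexamerin family. It had 902556, 693948 and 788529 normalised counts in prepupae titled LacZ, 6266126, 6402541 and 6431193 in those titled mitf, and 10608, 9185 and 1597 in larvae. All prepupa libraries lay far above all larvae, and libraries titled LacZ lay below those titled mitf without overlap. The ratio of mean levels was 892.9 for prepupae titled mitf over larvae. The fitted difference of mean log2 levels, which weights the low larval replicate 3 more, was 10.21 ± 0.61 (limma, adjusted p = 2.71e-07) that ranked 24 among all 10139 genes tested by size of rise. For prepupae titled LacZ over larvae the ratio of means was 111.5 and the difference of mean log2 levels 7.20 ± 0.61 (limma, adjusted p = 2.19e-06). Without larval replicate 3, whose value was the lowest, these differences were 9.33 and 6.32. Between the prepupa groups the level fell by 3.01 ± 0.61 in those titled LacZ (limma, adjusted p = 0.00139).

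Fbp2 encodes a fat body protein of the short-chain dehydrogenase family, related to alcohol dehydrogenase. It had 163784, 136202 and 189039 normalised counts in prepupae titled LacZ, 774636, 731635 and 649525 in those titled mitf, and 320760, 268589 and 94007 in larvae. Prepupae titled mitf were above all other libraries, and prepupae titled LacZ lay inside the wide range of the larvae. The log2 difference was -2.15 ± 0.43 for titled LacZ against titled mitf (limma, adjusted p = 0.00117) and 1.84 ± 0.43 for titled mitf against larvae (limma, adjusted p = 0.00343). Prepupae titled LacZ against larvae gave -0.31 ± 0.43 (limma, adjusted p = 0.515). This last value was 0.18 with equal library totals and 0.02 without larval replicate 1. It passed the test at -0.86 without larval replicate 3 (limma, adjusted p = 0.0127), so the larval libraries decide both its size and its call.

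Obp99b encodes a small secreted protein of the odorant-binding family. It had 64768, 71179 and 74250 normalised counts in prepupae titled LacZ, 408193, 386955 and 342657 in those titled mitf, and 242996, 161220 and 107667 in larvae. The groups did not overlap, with prepupae titled mitf highest and prepupae titled LacZ lowest. The log2 difference was -2.43 ± 0.28 for titled LacZ against titled mitf (limma, adjusted p = 2.86e-05). It was -1.21 ± 0.28 for titled LacZ against larvae (limma, adjusted p = 0.00296) and 1.23 ± 0.28 for titled mitf against larvae (limma, adjusted p = 0.00333).

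**Figure D2:**
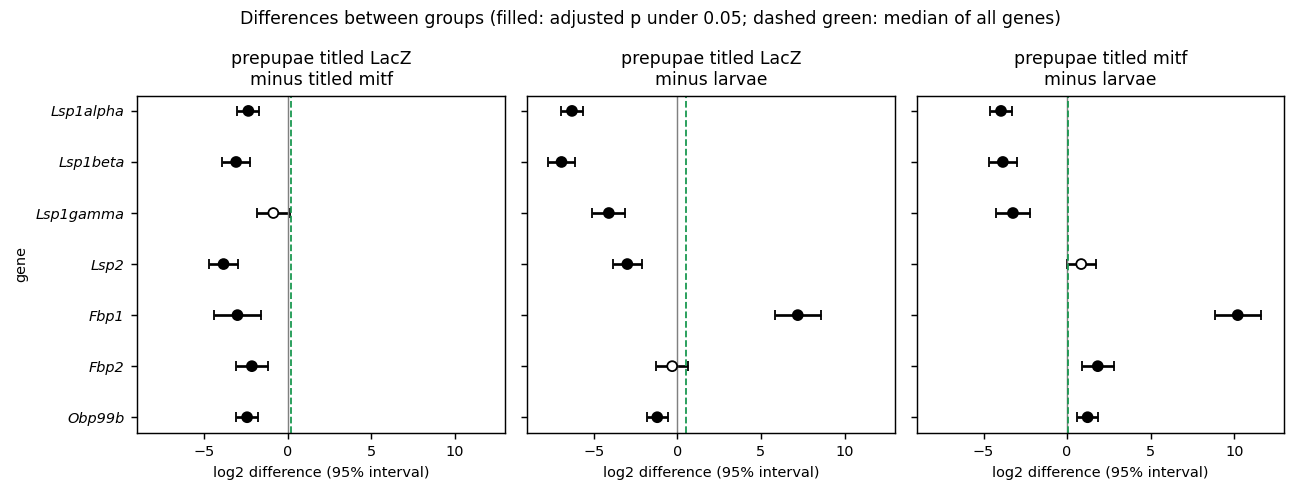
Log2 differences of the 7 genes with 95% intervals for prepupae titled LacZ minus prepupae titled mitf, prepupae titled LacZ minus larvae and prepupae titled mitf minus larvae, filled where the adjusted p was under 0.05. All 7 values lie below 0 in the left panel, and Fbp1 stands alone at 7.20 and 10.21 in the other panels; the dashed line marks the median of all genes tested.

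Between the prepupa groups, 6 of the 7 genes were called lower in those titled LacZ and none higher, with Lsp1gamma not called. Of all genes tested 72.7% were called in this comparison, 31.6% as lower and 41.1% as higher. All 7 genes had groups that did not overlap, as did 76.1% of all genes. The median log2 difference was -2.43 over the 7 genes and 0.22 over all genes, which became -0.04 with equal library totals without the 7 genes. Prepupae titled LacZ against larvae gave 5 genes called lower and Fbp1 called higher, where 78.5% of all genes were called, 32.2% as lower and 46.3% as higher. The groups did not overlap for 6 of the 7, against 79.9% of all genes, and the medians were -2.998 and 0.50. Prepupae titled mitf against larvae gave 3 genes called higher, Fbp1, Fbp2 and Obp99b, and the 3 Lsp1 genes called lower, where 66.4% of all genes were called, 34.8% as higher and 31.7% as lower. Here the groups of all 7 did not overlap, against 71.1% of all genes, and the medians were 0.84 and 0.08. The comparisons share libraries pairwise, so their values are not independent of each other.

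A share of the library does not depend on how the library was scaled. Together the 7 genes took 8.52%, 6.68% and 8.12% of all normalised counts in prepupae titled LacZ, 44.6%, 43.8% and 42.8% in those titled mitf, and 43.5%, 40.2% and 29.5% in larvae. Prepupae titled LacZ thus lay far below both other groups, which overlapped each other. The 4 larval serum proteins alone took 1.99% ± 0.485 in prepupae titled LacZ, 12.6% ± 0.778 in those titled mitf and 36.1% ± 6.69 in larvae (SD, n = 3 each). The 3 Lsp1 genes took 1.03% ± 0.315, 2.46% ± 0.221 and 30.6% ± 5.47 in the same groups.

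The gene that led the set differed by group. Fbp1 took 4.47% ± 0.517 of the counts in prepupae titled LacZ and 26.6% ± 0.486 in those titled mitf, against 0.0275% ± 0.0178 in larvae (SD, n = 3 each). Lsp1beta took 0.185% ± 0.0850, 1.08% ± 0.0829 and 14.9% ± 0.437 in the same groups. Lsp2 took 0.963% ± 0.205 in prepupae titled LacZ, 10.1% ± 0.648 in those titled mitf and 5.51% ± 1.38 in larvae. Obp99b took 0.395% ± 0.0285, 1.58% ± 0.157 and 0.670% ± 0.211 in those groups, and Fbp2 took 0.916% ± 0.124, 3.00% ± 0.298 and 0.887% ± 0.412. Both were thus highest in prepupae titled mitf. Lsp1alpha took 0.115% ± 0.0302 in prepupae titled LacZ, 0.427% ± 0.0534 in those titled mitf and 6.42% ± 1.31 in larvae, and Lsp1gamma took 0.730% ± 0.221, 0.957% ± 0.112 and 9.32% ± 3.90.

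Of the 27 comparisons of shares, 9 for each pair of groups, 24 had no overlap and gave 0.1 in a two-sided exact permutation test, the smallest p that 3 against 3 libraries allow (adjusted p = 0.1125). The other 3 were Lsp1gamma between the prepupa groups (exact p = 0.2), Fbp2 in prepupae titled LacZ against larvae (exact p = 1) and all 7 genes together in prepupae titled mitf against larvae (exact p = 0.2).

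**Figure D3:**
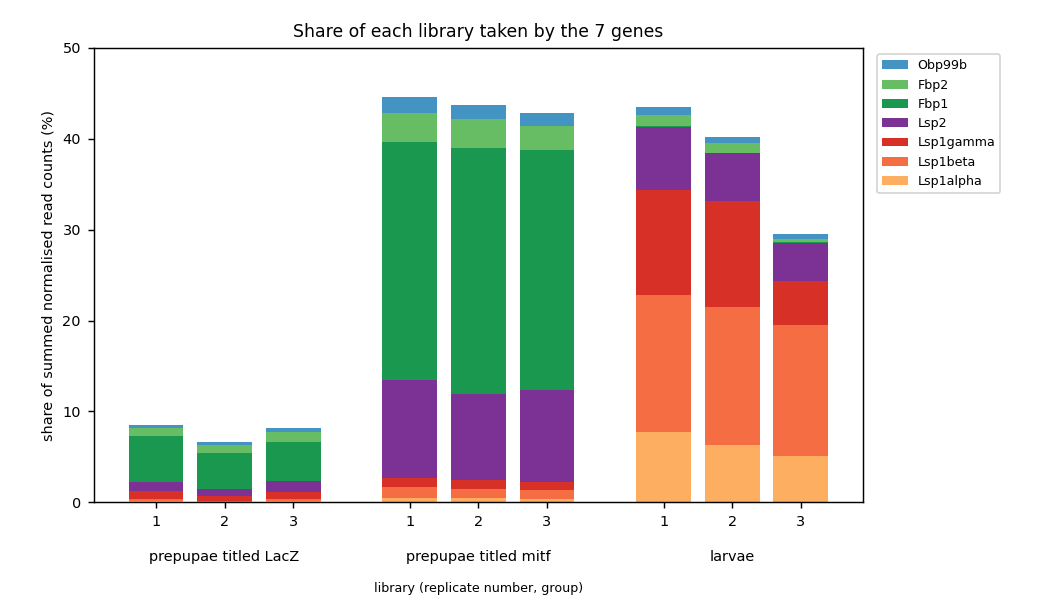
Stacked shares of the summed normalised read counts taken by each of the 7 genes, 1 bar for each library, in percent. Fbp1 fills most of the bar in both prepupa groups and is not visible in larvae, where the 3 Lsp1 genes fill most of it; bars reach 6.68% to 8.52% in prepupae titled LacZ, 42.8% to 44.6% in those titled mitf and 29.5% to 43.5% in larvae.

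Levels were compared between genes as normalised counts per kb of the longest transcript. In prepupae titled LacZ the mean levels per kb were ordered Fbp1, Fbp2, Obp99b, Lsp2, Lsp1gamma, Lsp1beta and Lsp1alpha, from 229440 for Fbp1 to 7809 for Lsp1alpha. The ranges of Lsp2 and Lsp1gamma overlapped, as did those of Lsp1beta and Lsp1alpha. In prepupae titled mitf the order was Fbp1, Lsp2, Fbp2, Obp99b, Lsp1beta, Lsp1gamma and Lsp1alpha, from 1837408 to 38956 per kb. There the ranges of Fbp2 and Obp99b overlapped, and so did those of Lsp1beta and Lsp1gamma. In larvae the order was Lsp1beta, Lsp1gamma, Lsp1alpha, Lsp2, Obp99b, Fbp2 and Fbp1, from 1353960 to 2058 per kb. Ranges of all neighbours in the larval order overlapped apart from those of Fbp2 and Fbp1, and with coding length in place of transcript length Lsp2 came before Lsp1alpha. Of the summed level per kb of the 7 genes, Fbp1 held 35.8% ± 2.96 in prepupae titled LacZ, 42.2% ± 1.87 in those titled mitf and 0.0468% ± 0.0259 in larvae (SD, n = 3 each). Lsp1beta held 1.82% ± 0.707, 2.16% ± 0.118 and 35.3% ± 7.22 in the same groups.

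Among the 10189 genes with a known length, Lsp1beta ranked 1 per kb in every larval library and between 90 and 258 in prepupae titled LacZ. Fbp1 ranked 1 or 2 in prepupae titled LacZ, 1 in every library titled mitf and between 454 and 1818 in larvae. Lsp2 ranked between 11 and 14 in prepupae titled LacZ, 2 in those titled mitf and 4 in larvae. Fbp2 and Obp99b stayed among the 9 highest genes in every library, Fbp2 at ranks 3 to 9 and Obp99b at ranks 4 to 8.

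The 3 Lsp1 transcripts did not keep a fixed proportion. Per kb, Lsp1gamma made up 72.7% ± 4.42 of the summed Lsp1 level in prepupae titled LacZ, 40.7% ± 1.68 in those titled mitf and 31.1% ± 8.68 in larvae (SD, n = 3 each). Lsp1beta made up 16.3% ± 4.41, 41.9% ± 2.58 and 47.7% ± 8.36 in the same groups. Lsp1alpha, the X-linked member and one known to escape dosage compensation, made up 11.0% ± 0.636, 17.3% ± 0.897 and 21.1% ± 1.74.

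**Figure D4:**
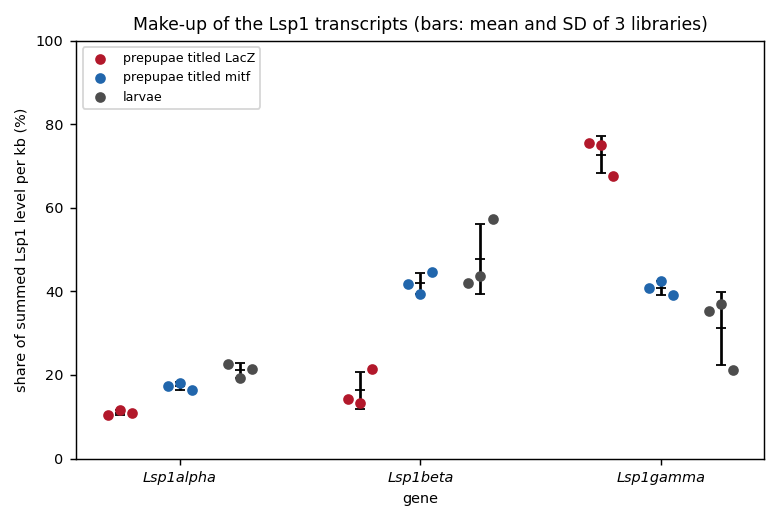
Share of the summed Lsp1 level per kb held by Lsp1alpha, Lsp1beta and Lsp1gamma, in percent, with points for 3 libraries of each group and bars for the mean and SD. Lsp1gamma averages 72.7% in prepupae titled LacZ, 40.7% in those titled mitf and 31.1% in larvae.

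Ratios were also taken within each library. The ratio of Lsp1gamma to Lsp1alpha per kb was 7.30, 6.46 and 6.15 in prepupae titled LacZ, 2.35, 2.33 and 2.38 in those titled mitf, and 1.56, 1.92 and 0.985 in larvae. The libraries titled LacZ stood above all others. The ratio differed by 1.49 on the log2 scale between titled LacZ and titled mitf and by 2.21 between titled LacZ and larvae (two-sided exact permutation p = 0.1 each, the smallest possible, adjusted over 8 ratios to 0.1 and 0.114). The ratio of Lsp1gamma to Lsp1beta was 5.34, 5.59 and 3.16 in prepupae titled LacZ, 0.977, 1.08 and 0.876 in those titled mitf, and 0.838, 0.845 and 0.369 in larvae. The ratio of Lsp1beta to Lsp1alpha varied least of the 8 ratios, at 1.37, 1.15 and 1.95 in prepupae titled LacZ, 2.40, 2.17 and 2.72 in those titled mitf, and 1.86, 2.28 and 2.67 in larvae. Its ranges overlapped between each prepupa group and the larvae (exact permutation p = 0.2 for titled LacZ and 0.6 for titled mitf).

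The balance of the storage hexamerins also differed. Lsp2 stood at 0.771, 1.18 and 1.05 times the summed Lsp1 level per kb in prepupae titled LacZ, 4.24, 4.05 and 4.80 times in those titled mitf, and 0.216, 0.170 and 0.188 times in larvae. The 3 groups lay apart, with prepupae titled LacZ in the middle. The log2 difference of the ratio was -2.14 for titled LacZ against titled mitf, 2.37 for titled LacZ against larvae and 4.51 for titled mitf against larvae.

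Receptor and stores were set against each other in the same way. Fbp1 stood at 2.95, 4.43 and 2.76 times the summed Lsp1 level per kb in prepupae titled LacZ, 7.40, 8.32 and 8.96 times in those titled mitf, and 0.000864, 0.000836 and 0.000224 times in larvae. Fbp1 was above the summed Lsp1 level in every prepupa library and far below it in every larval one. That sum leaves out Lsp2, and no ratio to Lsp1 and Lsp2 together was taken. Against Lsp2 alone, Fbp1 was 3.83, 3.75 and 2.63 in prepupae titled LacZ, 1.74, 2.05 and 1.87 in those titled mitf, and 0.00399, 0.00492 and 0.00119 in larvae. Here the libraries titled LacZ were the highest, with a log2 difference of 0.83 to those titled mitf (exact permutation p = 0.1, adjusted 0.1).

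Fbp2 to Fbp1 ran at 0.585, 0.633 and 0.773 in prepupae titled LacZ, 0.399, 0.369 and 0.326 in those titled mitf, and 97.6, 94.3 and 190 in larvae. Obp99b to summed Lsp1 ran at 1.25, 2.69 and 1.54 in prepupae titled LacZ, 2.85, 2.98 and 2.82 in those titled mitf, and 0.117, 0.0867 and 0.0892 in larvae. Across the 8 ratios and 3 comparisons, 22 of 24 had no overlap between the groups, and the exceptions were those of Lsp1beta to Lsp1alpha.

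**Figure D5:**
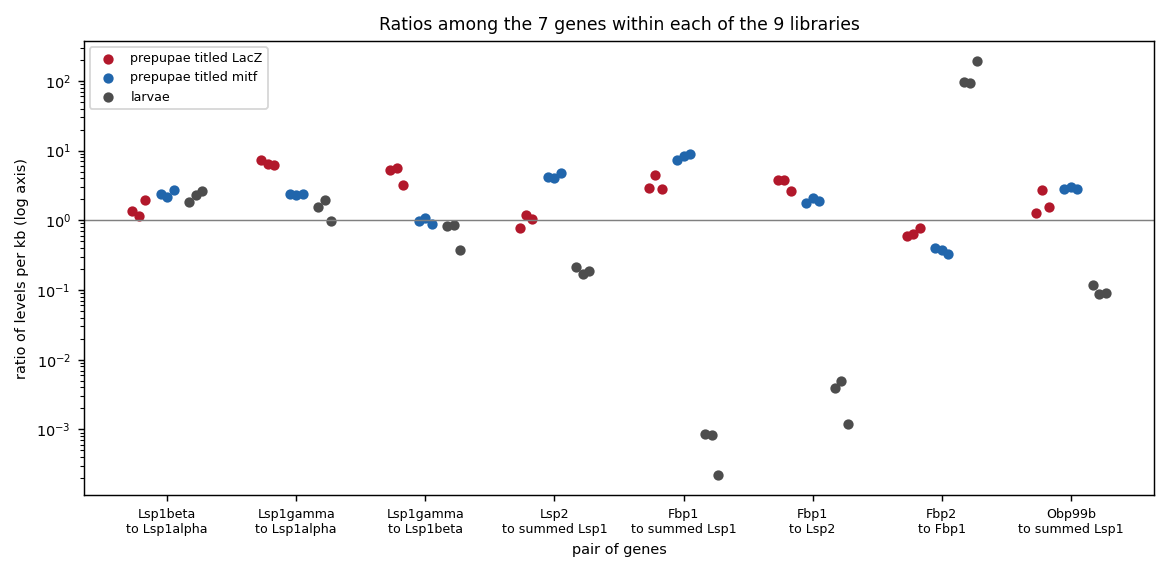
Ratios of levels per kb for 8 pairs on a log axis, 1 point for each library, in prepupae titled LacZ, prepupae titled mitf and larvae. Ratios among the Lsp1 genes lie between 0.369 and 7.30, and ratios that hold Fbp1 differ most between prepupae and larvae.

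Libraries of 1 group also differed. Larval replicate 1 was the highest and larval replicate 3 the lowest larva for 7 of the 7 genes, and replicate 1 exceeded replicate 3 by 1.26 times for Lsp1beta and 6.64 times for Fbp1. On the log2 scale, replicate 3 differed from the mean of the other larvae by -2.63 to -0.29 for the 7 genes, with a median of -0.88. Over all genes tested the median of that difference was 0.01, with quartiles of -0.18 and 0.29. Among prepupae titled LacZ, replicate 2 was the lowest for 6 of the 7 genes, all but Obp99b. How often it was the lowest over all genes was not counted. It also had the highest Mitf level of the group, and a link between the 2 was not tested. Among prepupae titled mitf, replicate 1 was the highest for 6 of the 7 genes, all but Fbp1, and replicate 3 the lowest for 4. Fbp1 was the steadiest of the 7 genes there, at 6366620 ± 88202 normalised counts (SD, n = 3).

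Across the 9 libraries, Pearson correlations of log2 levels were 0.99 for Lsp1alpha and Lsp1beta, 0.97 for Lsp1alpha and Lsp1gamma and 0.95 for Lsp1beta and Lsp1gamma. Lsp2 followed Obp99b at 0.94, Fbp2 followed Obp99b at 0.91, and Fbp1 and Lsp1gamma stood at -0.80. These values describe 3 groups of 3 libraries and are set mainly by the group means. Of 4763 genes whose highest group mean reached 100, those most like Lsp1alpha were fon, a clotting protein gene, Pdi, which encodes a disulfide isomerase of the endoplasmic reticulum, and Idgf6, which encodes a secreted chitinase-like protein, at r = 0.999, 0.998 and 0.997. Their own levels were lower, with means of 3288, 16867 and 217678 normalised counts for fon in prepupae titled LacZ, prepupae titled mitf and larvae.

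The nearest genes to Lsp1beta were Nepl10, GNBP1 and Non2, and those to Lsp1gamma were Lrt, Cyp6w1 and Npc2f. Lsp2 was most like Vsp37A, Snx17 and mirr, all at 0.99. Fbp1 was most like spict, Tsp42Ej and alpha-Est3 at 0.996 to 0.999. A high correlation did not mean a change of like size, since spict averaged 558.7, 961.5 and 152.4 normalised counts in prepupae titled LacZ, prepupae titled mitf and larvae. Fbp2 was most like Cyp6v1, Jheh2 and Vps20 at 0.97, and Obp99b was most like KLHL18, Inos and CARPB at 0.98 to 0.99.

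Relatives and partners of these genes were described by list, each count to be read against the percentages given above for all genes. The phenol oxidases are hexamerin relatives of hemocytes that drive melanization. Against prepupae titled mitf, PPO1 and PPO2 were lower in prepupae titled LacZ, by log2 differences of -3.11 ± 0.56 and -2.61 ± 0.48 (limma, adjusted p = 0.000584 and 0.000693), and PPO3 was higher by 5.38 ± 0.51 (limma, adjusted p = 6.41e-06). The same split of 2 lower and 1 higher was found against larvae. None of the 3 was called between prepupae titled mitf and larvae.

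Of 20 other proteins that the fat body secretes, prepupae titled LacZ had 6 called higher and 11 lower than prepupae titled mitf, with a median log2 difference of -1.29. Tsf1, which encodes the iron carrier transferrin, averaged 293.5 ± 18.0 normalised counts in prepupae titled LacZ and 102821 ± 18273 in those titled mitf, a log2 difference of -8.43 (limma, adjusted p = 1.46e-10). NLaz, a lipocalin gene, fell by 3.66, and the yolk protein genes Yp2 and Yp1 rose by 8.78 and 7.82. The value for Yp1 was 9.24 with a pseudocount of 0.1 and 6.28 with 5. Prepupae titled LacZ had 6 of the 20 higher and 12 lower than larvae, led by fon at -6.07 and Idgf6 at -4.48, and by Yp2 at 5.40 and NLaz at 4.91. In prepupae titled mitf against larvae, 3 were higher and 10 lower, led by NLaz at 8.57 and Tsf1 at 5.93, and by Yp3 at -5.04 and fon at -3.69.

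Adh, the alcohol dehydrogenase gene related to Fbp2, was highest in larvae and lowest in prepupae titled LacZ. It averaged 619.8 ± 47.9 normalised counts in prepupae titled LacZ, 7346 ± 794 in those titled mitf and 128499.6 ± 24661 in larvae (SD, n = 3 each). The log2 difference was -3.56 ± 0.15 for prepupae titled LacZ against those titled mitf (limma, adjusted p = 1.56e-08), -7.68 ± 0.15 for prepupae titled LacZ against larvae (limma, adjusted p = 1.96e-10) and -4.12 ± 0.15 for prepupae titled mitf against larvae (limma, adjusted p = 7.82e-09). Its neighbour Adhr was called lower in the same 3 comparisons.

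Of 22 other odorant-binding protein genes 12 were measured. Prepupae titled LacZ had 6 called higher and 3 lower than prepupae titled mitf, and 10 higher and 2 lower than larvae. Prepupae titled mitf had 6 higher and 1 lower than larvae. The summed share went another way, at 0.0374% to 0.0409% in prepupae titled LacZ, 0.125% to 0.160% in those titled mitf and 0.0615% to 0.0678% in larvae. Obp99c and Obp99a were lower in prepupae titled LacZ than in those titled mitf, by -4.69 and -2.03. Obp18a was higher there by 7.81, and Obp19d was listed at 0 in all libraries titled mitf and all larvae and averaged 1129 ± 494 in prepupae titled LacZ. Obp83ef and Obp56d rose by 7.13 and 6.42 in prepupae titled mitf against larvae, and Obp99a fell by 2.53. The values for Obp18a and Obp56d depend on the pseudocount, at 9.24 and 8.77 with 0.1 and at 6.31 and 4.53 with 5.

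Of 22 symbols listed for transcription factors of the ecdysone response and the fat body, 21 were found among the genes measured. Prepupae titled LacZ had 5 higher and 11 lower than prepupae titled mitf, with a median of -0.47, and with equal library totals 6 were higher and 7 lower with a median of -0.03. EcR, the ecdysone receptor gene, rose by 4.35 ± 0.22 (limma, adjusted p = 6.13e-08) and Hr38 by 6.84, and Eip93F and Hr3 fell by 3.54 and 1.78, with Hr3 not called at a pseudocount of 0.1. Prepupae titled LacZ had 12 higher and 5 lower than larvae, led by Hr4 at 10.77 and Hr3 at 7.94, and by ftz-f1 at -2.47 and Met at -1.73. In prepupae titled mitf against larvae, 14 were higher and 6 lower, led by Hr4 at 11.86 and Eip93F at 10.30, and by ftz-f1 at -2.54 and Hr38 at -2.41. The largest of these sizes depend on the pseudocount. With 0.1 and 5, prepupae titled LacZ against larvae gave 13.16 and 8.83 for Hr4 and 9.44 and 6.35 for Hr3. Hr38 between the prepupa groups gave 9.30 and 4.84, and Eip93F in prepupae titled mitf against larvae 12.75 and 8.28.

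Secreted proteins enter the endoplasmic reticulum through the signal recognition particle and the Sec61 channel. Of 26 genes listed for this route 24 were measured. The list and the counts below hold Srp54, a gene apart from Srp54k whose place on this route rests on its name alone. In prepupae titled LacZ 5 were higher and 17 lower than in those titled mitf, with a median of -1.44, and 2 were higher and 19 lower than in larvae, with a median of -2.62. In prepupae titled mitf 3 were higher and 18 lower than in larvae, with a median of -1.17. With equal library totals, prepupae titled LacZ had 7 higher and 17 lower than those titled mitf, with a median of -1.01. The summed share did not fall between them, at 0.319% to 0.347% in prepupae titled LacZ and 0.273% to 0.322% in those titled mitf. In larvae it was 0.592% to 0.647%. Sec61beta, a channel subunit gene, averaged 376.7 ± 6.91 normalised counts in prepupae titled LacZ and 5459 ± 627 in those titled mitf, a log2 difference of -3.85 (limma, adjusted p = 4.18e-09), and SrpRbeta fell by 3.35. Srp54 and Sec31 went the other way, at 3.23 and 1.08, while Srp54k stood at -1.34. Against larvae, SrpRalpha and Sec61beta fell by 5.34 and 5.30 in prepupae titled LacZ, and Srp54 and Sec24AB rose by 3.64 and 1.54. Srp54k stood at -2.04 in that comparison. In prepupae titled mitf against larvae, SrpRalpha and Sec61gamma fell by 2.15 and 2.01 and Sec24AB rose by 1.28, and Srp54 at 0.41 was called here but not with trimmed mean scaling, without the mean-variance trend, or when any library titled mitf, or larval replicate 1 or 2, was left out.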

How the data were processed

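Messenger RNA of fat body was measured in 9 libraries, 3 for each group. Per the submitters' processing notes, bcl2fastq, Salmon 1.5.2 and DESeq2 were used with build BDGP6. The deposited values are a normalised signal, 1 value per gene and library, called normalised read counts here. Whole reads could not be recovered: 69.5% to 76.2% of low values lay near whole multiples of a unit (tolerance 0.05, multiples up to 10), which put the depth at roughly 18500000 to 29000000 reads. Count tests were therefore not used. A filter kept the 10139 genes that reached 1 in 3 or more libraries and dropped 103, none of them among the 7 genes. limma 3.58.1 in R 4.3.3 was fitted to log2(value + 1) of all 9 libraries with a mean-variance trend, 1 coefficient per group, and Benjamini-Hochberg adjustment over all genes tested. The threshold for a call was an adjusted p of 0.05, tests were two-sided, and log2 differences of low genes are understated by the pseudocount. Shares and ratios were tested with exact permutation tests in Python 3.11.15 with scipy 1.17.1. Symbols were found for 10189 of 10242 identifiers, and levels per kb used the longest annotated transcript. Only the limma fit, for prepupae titled LacZ against those titled mitf, was tried on simulated data, and the permutation tests were not. Groups follow the sample titles. The 7 genes and the gene lists were chosen with earlier results of these data known. Named genes were the 7, the 3 genes most correlated with each, and the 2 largest called rises and falls of each list in each comparison. Alternatives covered the pseudocount, the filter, the scaling, the trend, the libraries fitted, a replicate block, the transcript length and each library left out.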

Additional observations from a re-analysis of the deposited data

Results flagged for a closer look

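Lsp2, Fbp2 and Obp99b differed from larvae in opposite directions in the prepupa groups, with values lower than larvae in prepupae titled LacZ and higher than larvae in those titled mitf. Both stage comparisons share the larvae, so the difference between them is titled LacZ minus titled mitf: -3.84 for Lsp2, -2.15 for Fbp2 and -2.43 for Obp99b on the log2 scale. Picking genes with larvae between the prepupa groups already fixes the sign of that value, and 6 of all 7 genes were called lower in it, so its call does not by itself support an opposite direction. Only for Obp99b was each stage difference called by itself. For Lsp2 the difference of prepupae titled mitf from larvae was not called, and for Fbp2 the difference of prepupae titled LacZ from larvae was not called and its sign depended on the larval libraries. Mitf itself was high in prepupae titled LacZ and at the larval level in those titled mitf, so the titles go against the measured Mitf level.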

How the results depend on the processing

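Of 378 refitted log2 differences of the 7 genes, 368 kept their direction and their side of the threshold, 8 became called and 2 changed sign. Some refits could change only the call and not the difference. These were the filter, trend, block and compared-groups settings, and leaving out a library of the group not compared. Coding length could likewise not move the difference of a ratio between 2 single genes. Counts of called genes, over the 7 and over all genes, stayed within 1.5 times in all 216 refits, and 187 of 189 share differences and 167 of 168 ratio differences kept their direction. Fbp2 in prepupae titled LacZ against larvae moved to 0.18 with equal library totals and ranged from -0.86 to 0.024 with 1 library left out. Its share difference ranged from -0.21 to 0.17 percentage points, and changed sign without titled LacZ replicate 3 (-0.0337) and without larval replicate 3 (-0.208). Lsp2 in prepupae titled mitf against larvae became called at 0.90 with equal library totals, at 1.04 with equal totals without the 7 genes and at 0.84 without the mean-variance trend, and ranged from 0.60 to 1.09 with 1 library left out. Lsp1gamma between the prepupa groups became called at -1.15 with equal totals without the 7 genes and at -0.86 when only those groups were fitted, and ranged from -1.07 to -0.58 with 1 library left out. The log2 ratio of Lsp1beta to Lsp1alpha in prepupae titled mitf against larvae changed sign to -0.0279 without larval replicate 1 and ranged up to 0.233. The cause of these changes was not tested. Equal library totals moved the median of all genes by 0.41, 0.45 and 0.05 in the 3 comparisons, equal totals without the 7 genes moved it by -0.25, -0.07 and 0.18, and trimmed mean scaling moved it by -0.17, -0.23 and -0.07. With coding length, 8 of 21 mean levels per kb moved by more than 1 SD. Replicate numbers are shared between groups, but deviations of same-numbered libraries correlated at only -0.07 to 0.09, so the numbers do not pair the libraries. A replicate block changed no call of the 7 genes, and between the prepupa groups it gave 4133 genes higher and 3167 lower in those titled LacZ, against 4166 and 3200 without it. The depth is an estimate, and with 3 libraries a group no permutation p can pass 0.05.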
